A study of Danio rerio with 20 samples.

Results

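The genes described here were the ABC transporters of subfamilies A to D and G, the branches of the ATP-binding cassette family whose members span a membrane. A member was any gene whose symbol in the deposited table began with abca, abcb, abcc, abcd or abcg and a digit. A gene with several transcript rows was read from the row of highest mean over the 20 libraries. This gave 46 members of 22851 genes. The 44 described here came from 97 transcript rows, with 14 members on 1 row, and every count of members below is of these 44. All 44 passed the filter on low values, which asked for 4 or more libraries at 0 log2 RPM or above. RPM are reads scaled to a common total, and log2 RPM, the unit of the deposited values, is not divided by transcript length, so levels are compared below between libraries of 1 gene and never between genes. The rule for a member used symbols and means over all libraries, and no measured difference between groups. Members and role lists were, however, chosen with earlier results of these data known.

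The libraries were made from whole zebrafish larvae of the AB strain at 96 hours post fertilization (hpf), exposed since 6 hpf. Control larvae had the solvent, 0.1% dimethyl sulfoxide, a level that the labels give for Control only. POP10 and POP70 larvae had a mixture of persistent organic pollutants at 10 and 70 times the levels in Scandinavian blood. PFOS10 and PFOS70 larvae had perfluorooctanesulfonic acid (PFOS), a fluorinated surfactant, alone, in the amounts present in those mixtures. Each of the 5 groups had 4 samples of 10 pooled larvae, so no value belongs to 1 larva or 1 organ. Whether pools were of different clutches is not in the labels, so a p-value here weighs a difference against the spread between pools only.

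ABC transporters use ATP to move a substrate across a membrane, most of them out of the cell or into an organelle. In liver, gut and kidney, pumps of the B, C and G branches (in fish also called multixenobiotic resistance transporters) export foreign compounds and their glutathione, sulfate and glucuronide conjugates, and others load bile with bile salts and sterols. Members of the A and G branches move cholesterol and phospholipid, those of the D branch carry fatty acids into peroxisomes, and a few C members are regulatory subunits of potassium channels rather than pumps. Members are ordered below by these roles, which are known mainly from mammals.

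Depth ran from 8572287 to 11243573 reads per library as the total behind the RPM scale, and members lay between -0.57 and 9.24 log2 RPM in mean. A principal component analysis set the PFOS10 libraries apart on its first axis (39.6% of the variance), at -61.5 to -49.4, with all others at -21.9 to 45.0. No library was left out for this. Transcripts with 0 reads numbered 4014 to 4120 in the PFOS10 libraries and 3340 to 3886 in all others. The part of this in the results below was not tested. Markers of liver, gut, pancreas, kidney, eye, nerve, muscle, heart, macrophages and ionocytes were detected. Libraries of 1 group correlated at 0.972 to 0.988.

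In larvae given PFOS alone at the lower level, 10 of 44 ABC members fell against Control and none rose. Of the 13 members listed here under xenobiotic efflux, 7 fell (abcc2, abcb4, abcg2a, abcg2b, abcc4, abcc12 and abcc1). Also lower were abcb11b, a copy of the bile salt export pump, and the lipid transporters abca1b and abca12. The falls ran from 1.36-fold for abcc1 to 3.28-fold for abcb11b. In PFOS70, at the higher level, the mean of each of the 10 but abcg2a lay above the Control mean. No member passed the threshold against Control there, and neither did any other gene tested. The test throughout was limma's moderated two-sided test over all 20 libraries, with Benjamini-Hochberg adjustment over 19289 genes and a threshold of 0.05. Over all genes tested, 6.97% fell and 1.28% rose in PFOS10 against Control, and the member counts stand at 22.7% and 0 of 44. The median member difference was -0.17 on the log2 scale, beside -0.03 over all genes, and 31 of 44 members lay on the negative side. The count changed when 1 library was left out: it was 4 without Control replicate 2, 4 without Control replicate 4, 5 without Control replicate 1 and 5 without PFOS10 replicate 1. The shares of all genes called in those fits are not given here. A drop particular to the members is therefore not told apart from a drop over all genes in a smaller group. The calls of abcc4, abca1b and abcc1 held in all 30 other settings tried, and that of abcg2b in all 29 that tested it.

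**Figure D1:**
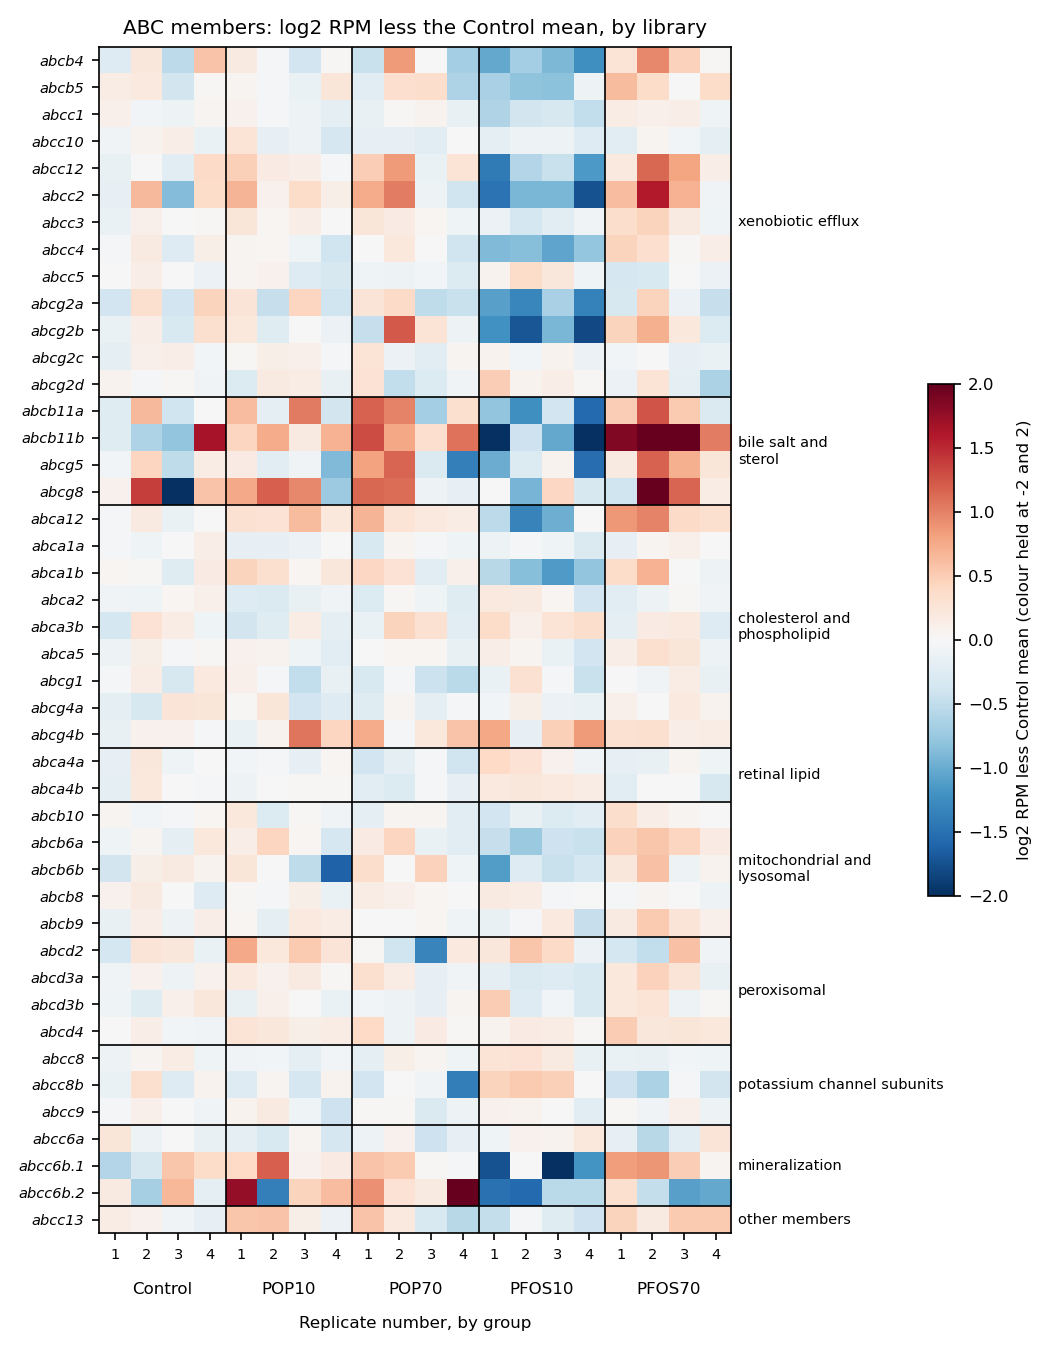
Each row is 1 of 44 ABC members, ordered by role, and each column 1 library. Colour gives log2 RPM less the mean of the 4 Control libraries, held at -2 and 2. Blue cells gather in the PFOS10 columns of the efflux and bile salt rows, among them abcc2, abcg2b and abcb11b, while the PFOS70 columns of those rows are mostly red.

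abcc2 (ENSDART00000016604, chromosome 13, 681628 to 711576, plus strand, with positions as the table gives them and the build GRCz11 per the submitters' processing notes) encodes a pump that, in mammals, exports conjugates into bile and urine. Its log2 RPM was 5.32, 6.13, 4.61 and 5.85 in Control, 6.16, 5.57, 5.85 and 5.59 in POP10, 6.23, 6.5, 5.37 and 5.08 in POP70, 4.01, 4.56, 4.56 and 3.73 in PFOS10, and 6.09, 7.06, 6.18 and 5.41 in PFOS70. The PFOS10 libraries lay below every Control library, and Control replicate 3 was the lowest of the other 16. abcc2 fell by 1.26 ± 0.35 on the log2 scale (2.40-fold lower, adjusted p = 0.0314), from 5.48 ± 0.67 to 4.22 ± 0.42 log2 RPM (SD, n = 4). Without Control replicate 4 its adjusted p was 0.11, and the call was also lost without Control replicate 1 or 2 or PFOS10 replicate 1 or 4. Changes of processing described below lost it too: no filter, quantile normalization, no variance trend and voom.

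abcb4 (ENSDART00000148456, chromosome 16, 28629242 to 28658341, minus strand) is, in zebrafish, an efflux pump for foreign compounds of the P-glycoprotein type, whereas its human namesake moves phosphatidylcholine into bile. In the libraries abcb4 measured 5.06, 5.54, 4.8 and 5.89 in Control, 5.5, 5.29, 4.94 and 5.35 in POP10, 4.87, 6.17, 5.33 and 4.65 in POP70, 4.3, 4.64, 4.43 and 4.1 in PFOS10, and 5.59, 6.28, 5.78 and 5.34 in PFOS70 log2 RPM. All 4 PFOS10 values lay below all 4 Control values, and POP70 spread over more than 1 log2 unit. abcb4 fell by 0.95 ± 0.27 on the log2 scale (1.94-fold lower, adjusted p = 0.0346). Its call was lost in 10 of 30 other settings, with adjusted p up to 0.138 without Control replicate 4. It was also lost without Control replicate 1 or 2 and without PFOS10 replicate 1, 3 or 4. The remaining losses came with no filter, quantile normalization, no variance trend and voom.

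abcg2a (ENSDART00000165025, chromosome 23, 45910033 to 45936357, plus strand) is 1 of 4 zebrafish copies of ABCG2, the breast cancer resistance protein, which in mammals exports drugs, urate and porphyrins. The abcg2a values in log2 RPM were 5.32, 6.01, 5.31 and 6.15 in Control, 5.96, 5.23, 6.13 and 5.29 in POP10, 5.95, 6.08, 5.19 and 5.26 in POP70, 4.6, 4.4, 5.05 and 4.35 in PFOS10, and 5.37, 6.14, 5.59 and 5.24 in PFOS70. The PFOS10 libraries lay below all other 16, and the other groups overlapped one another. abcg2a fell by 1.1 ± 0.26 on the log2 scale (2.14-fold lower, adjusted p = 0.0162), a call lost without Control replicate 2 or without Control replicate 4 (adjusted p = 0.0738). Its low-count copy abcg2b, singled out after its values were seen, had 2.04, 2.3, 1.87 and 2.49 log2 RPM in Control and 0.96, 0.47, 1.26 and 0.38 in PFOS10, and it fell by 1.41 ± 0.29 on the log2 scale (2.66-fold lower, adjusted p = 0.00842). The copies abcg2c and abcg2d did not pass, at -0.01 (95% interval -0.22 to 0.2) and 0.18 (-0.21 to 0.57) in log2 difference. The sequences of the copies were not compared. Reads matching several copies would make their values uncertain, and how such reads were handled is not stated in the sources used here.

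abcc4 (ENSDART00000065500, chromosome 6, 7322587 to 7390458, plus strand) encodes a pump that exports cyclic nucleotides, prostaglandins and nucleoside drugs in mammals. Libraries gave abcc4 values of 5.3, 5.53, 5.09 and 5.46 in Control, 5.39, 5.38, 5.26 and 4.94 in POP10, 5.34, 5.55, 5.33 and 4.94 in POP70, 4.46, 4.49, 4.29 and 4.56 in PFOS10, and 5.78, 5.67, 5.37 and 5.48 in PFOS70 in log2 RPM. PFOS10 stood clear of the other 16 libraries, whose lowest value was in POP10 and POP70. abcc4 fell by 0.89 ± 0.13 on the log2 scale (1.85-fold lower, adjusted p = 0.00106), the smallest adjusted p of any member in this comparison. abcc1 (ENSDART00000161897, chromosome 3, 36713482 to 36743962, plus strand) exports glutathione conjugates. For abcc1 the log2 RPM was 6.56, 6.41, 6.36 and 6.51 in Control, 6.55, 6.42, 6.36 and 6.27 in POP10, 6.32, 6.48, 6.53 and 6.31 in POP70, 5.87, 6.1, 6.15 and 5.97 in PFOS10, and 6.61, 6.57, 6.6 and 6.37 in PFOS70. The fall was small but clear of the spread, with every PFOS10 library below every library of the other groups. abcc1 fell by 0.44 ± 0.08 on the log2 scale (1.36-fold lower, adjusted p = 0.00509), from 6.46 ± 0.09 to 6.02 ± 0.13 log2 RPM (SD, n = 4).

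abcc12 (ENSDART00000149382, chromosome 7, 38158604 to 38183331, minus strand), a C-branch member, had log2 RPM of 3.41, 3.55, 3.33 and 3.94 in Control, 4.03, 3.72, 3.69 and 3.51 in POP10, 4.04, 4.41, 3.42 and 3.83 in POP70, 2.14, 2.97, 3.12 and 2.4 in PFOS10, and 3.75, 4.7, 4.35 and 3.69 in PFOS70. PFOS10 lay below Control without overlap and PFOS70 held the highest value of all. abcc12 fell by 0.9 ± 0.24 on the log2 scale (1.87-fold lower, adjusted p = 0.0296). The call was lost without Control replicate 1, 2 or 4 and without PFOS10 replicate 1, with adjusted p up to 0.114. Among changes of processing, it was lost with no filter, 4 RPM added before the log, quantile normalization and voom. abcb5 (ENSDART00000185141, chromosome 16, 19537038 to 19568795, minus strand), a relative of P-glycoprotein, had log2 RPM of 7.61, 7.65, 7.1 and 7.49 in Control, 7.51, 7.43, 7.32 and 7.7 in POP10, 7.25, 7.79, 7.81 and 6.85 in POP70, 6.82, 6.66, 6.64 and 7.35 in PFOS10, and 8.09, 7.82, 7.46 and 7.84 in PFOS70. PFOS10 replicate 4 reached into the Control range. The difference in PFOS10 was -0.6 ± 0.19 (95% interval -1.0 to -0.19, adjusted p = 0.0585), which did not pass, though it did without Control replicate 3, PFOS10 replicate 4 or POP70 replicate 4, and when read from its lowest-numbered transcript. Its row overlaps sp8b on the opposite strand, and whether counting used strand is not stated in the sources used here.

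abcc5 (ENSDART00000087070, chromosome 18, 45796096 to 45851621, plus strand), an exporter of cyclic nucleotides, did not pass against Control. Its log2 RPM was 9.29, 9.43, 9.29 and 9.17 in Control, 9.35, 9.38, 9.04 and 8.98 in POP10, 9.21, 9.19, 9.23 and 9.03 in POP70, 9.37, 9.66, 9.52 and 9.2 in PFOS10, and 8.96, 8.99, 9.29 and 9.17 in PFOS70. The PFOS10 mean was the highest of the 5 groups and the ranges overlapped. Its PFOS10 difference from Control was 0.15 ± 0.11 (adjusted p = 0.408). The organic anion exporter abcc3 (ENSDART00000161691, chromosome 12, 695619 to 786808, plus strand) had 4.81, 5.05, 4.95 and 4.97 in Control, 5.18, 4.98, 5.08 and 4.95 in POP10, 5.19, 5.11, 4.98 and 4.86 in POP70, 4.83, 4.59, 4.74 and 4.87 in PFOS10, and 5.3, 5.4, 5.12 and 4.85 in PFOS70 log2 RPM. Its groups were close together, with PFOS70 replicate 2 the highest. abcc3 differed from Control by -0.18 (-0.41 to 0.04) in PFOS10 and the drug exporter abcc10 by -0.16 (-0.39 to 0.07), and neither passed. Over the 13 efflux members the median difference was -0.60, and 11 of 13 were negative.

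Among the 4 bile salt and sterol members, abcb11b fell in PFOS10 and was the member with the widest range over the study. abcb11b (ENSDART00000102557, chromosome 11, 13224281 to 13272085, plus strand) and abcb11a are zebrafish copies of ABCB11, which pumps bile salts from hepatocytes into bile. The log2 RPM of abcb11b was 2.41, 2.04, 1.87 and 4.3 in Control, 3.09, 3.4, 2.83 and 3.34 in POP10, 3.96, 3.42, 2.99 and 3.74 in POP70, -0.48, 2.25, 1.63 and 0.38 in PFOS10, and 4.5, 4.9, 4.76 and 3.68 in PFOS70. Control replicate 4 stood far above the other Control libraries, and PFOS10 ran from below 0 up into the Control range. abcb11b fell by 1.71 ± 0.5 on the log2 scale (3.28-fold lower, adjusted p = 0.0385), from 2.66 ± 1.12 to 0.94 ± 1.23 log2 RPM (SD, n = 4). Without Control replicate 4, the difference was smaller and did not pass (adjusted p = 0.161). The call was also lost without Control replicate 1 or 2 and without PFOS10 replicate 1 or 4. Changes of processing lost it too: no filter, 4 RPM added before the log, quantile normalization, no variance trend, voom and a fit of the compared groups alone. The summed level of 15 hepatocyte marker genes was likewise highest among Control libraries in replicate 4, at 4382 RPM against 1635 to 2187 in the others, and its part in the result was not tested.

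abcb11a had means of 2.75 ± 0.46 log2 RPM in Control and 1.76 ± 0.51 in PFOS10 (SD, n = 4) and did not pass (adjusted p = 0.122). The sterol pumps abcg5 and abcg8 work as a pair, and their rows lie head to head on chromosome 13, overlapping by 58 bases, so their reads may not be fully separable. Both were near the detection floor, at medians of 15 and 14.5 reads per library. Their PFOS10 differences from Control were -0.68 (-1.63 to 0.27) and -0.21 (-1.51 to 1.1), and the intervals span a fall and a rise.

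**Figure D2:**
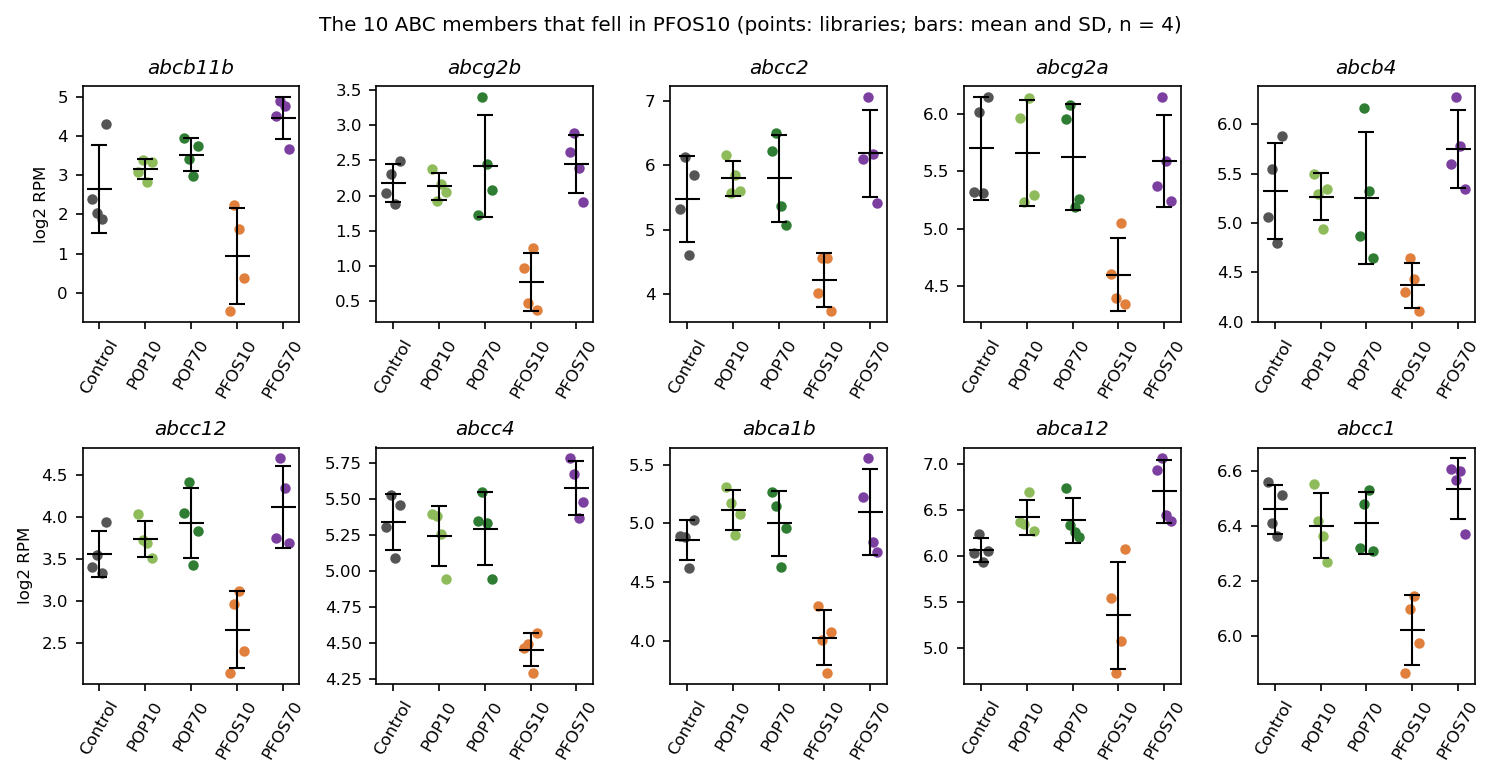
Each panel is 1 of the 10 members lower in PFOS10 than in Control, each point 1 library in log2 RPM, and bars give the mean and SD (n = 4). PFOS10 lies below Control without overlap in 8 panels, while abcb11b and abca12 overlap. The members were picked by their fall in this same comparison, so the lack of overlap is partly fixed by that choice. Its share over all genes is not given here. The PFOS70 mean lies above the Control mean in all but abcg2a.

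Of 9 cholesterol and phospholipid members, 2 fell in PFOS10. abca1b (ENSDART00000051556, chromosome 14, 6423973 to 6519073, plus strand) is a copy of ABCA1, which loads cholesterol and phospholipid onto apolipoprotein A-I. Log2 RPM of abca1b was 4.89, 4.89, 4.62 and 5.03 in Control, 5.31, 5.18, 4.9 and 5.08 in POP10, 5.27, 5.15, 4.63 and 4.96 in POP70, 4.3, 4.01, 3.73 and 4.08 in PFOS10, and 5.22, 5.55, 4.84 and 4.76 in PFOS70. PFOS10 was below all other libraries, and Control replicate 3 and POP70 replicate 3 were the lowest of the rest. abca1b fell by 0.83 ± 0.16 on the log2 scale (1.78-fold lower, adjusted p = 0.00731). The other copy, abca1a, differed by -0.12 ± 0.08 (95% interval -0.29 to 0.05) and did not pass. The difference between the copies was not tested.

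abca12 (ENSDART00000138634, chromosome 9, 40685613 to 40765868, minus strand) moves lipids into the granules that seal the skin in mammals. Its log2 RPM was 6.03, 6.24, 5.94 and 6.05 in Control, 6.38, 6.35, 6.7 and 6.27 in POP10, 6.75, 6.34, 6.27 and 6.21 in POP70, 5.55, 4.73, 5.08 and 6.08 in PFOS10, and 6.94, 7.07, 6.45 and 6.38 in PFOS70. PFOS10 replicate 4 fell within the Control range and the other 3 lay below it. abca12 fell by 0.71 ± 0.21 on the log2 scale (1.63-fold lower, adjusted p = 0.0409), a call lost in 12 of 30 other settings, with adjusted p up to 0.136. It was lost without Control replicate 1, 2 or 4 and without PFOS10 replicate 1, 2 or 3. The other losses came with no filter, 4 RPM added, quantile normalization, equal medians, no variance trend and the compared groups alone. abca3b (ENSDART00000165980, chromosome 3, 12652244 to 12699905, plus strand), a copy of the surfactant lipid transporter ABCA3, had log2 RPM of 7.06, 7.7, 7.57 and 7.34 in Control, 7.05, 7.17, 7.57 and 7.24 in POP10, 7.28, 7.86, 7.72 and 7.2 in POP70, 7.79, 7.52, 7.69 and 7.76 in PFOS10, and 7.22, 7.58, 7.61 and 7.16 in PFOS70. PFOS10 was tight, with replicates 1 and 4 above the Control range and replicates 2 and 3 inside it. Its difference from Control was 0.27 ± 0.16 (adjusted p = 0.283). abca2, abca5, abcg1, abcg4a and abcg4b, the last 3 of a cholesterol-exporting branch, did not pass in any comparison. Their PFOS10 differences from Control ran from -0.08 to 0.49.

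The retinal members abca4a and abca4b are copies of ABCA4, which clears retinal from the discs of photoreceptors. In PFOS10 both means were above Control, by 0.18 (-0.05 to 0.4) and 0.19 (0.02 to 0.37), and neither passed. The abca4a row overlaps tecrl2a on the opposite strand. The summed level of 9 photoreceptor markers was 20530 to 27020 RPM in PFOS10, 18280 to 22110 in Control and 16070 to 20100 in PFOS70, and its part in these values was not tested.

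None of the 5 mitochondrial and lysosomal members passed against Control. abcb6a (ENSDART00000092324, chromosome 1, 6135176 to 6158609, plus strand), a copy of a gene linked to porphyrin transport, had log2 RPM of 3.38, 3.52, 3.27 and 3.68 in Control, 3.59, 3.9, 3.51 and 3.12 in POP10, 3.63, 3.9, 3.33 and 3.24 in POP70, 3.0, 2.73, 3.05 and 3.02 in PFOS10, and 3.92, 4.01, 3.89 and 3.63 in PFOS70. PFOS10 did not overlap Control, and replicate 2 was the lowest library. The difference was -0.51 ± 0.16 (95% interval -0.85 to -0.18, adjusted p = 0.0525). abcb8 and the lysosomal peptide transporter abcb9 differed from Control by 0.07 (-0.11 to 0.25) and -0.11 (-0.38 to 0.15), and abcb10, which supports heme synthesis, by -0.25 (-0.47 to -0.03). The low-count copy abcb6b differed by -0.54 (-1.22 to 0.14).

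None of 4 peroxisomal and related members passed against Control. abcd3a (ENSDART00000161179, chromosome 24, 31310640 to 31332087, minus strand), a copy of the main ABC protein of the peroxisome membrane, had log2 RPM of 6.01, 6.17, 5.98 and 6.16 in Control, 6.28, 6.17, 6.26 and 6.11 in POP10, 6.4, 6.24, 5.92 and 6.02 in POP70, 5.9, 5.79, 5.83 and 5.78 in PFOS10, and 6.3, 6.55, 6.34 and 5.94 in PFOS70. All 4 PFOS10 libraries lay below all Control libraries. The difference was -0.26 ± 0.11 (95% interval -0.48 to -0.03, adjusted p = 0.139). abcd2, abcd3b and the lysosomal cobalamin transporter abcd4 gave differences of 0.26, -0.03 and 0.1 in the same order.

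None of 3 potassium channel subunits passed against Control. abcc8b (ENSDART00000098668, chromosome 18, 50040849 to 50083405, minus strand), a copy of the sulfonylurea receptor, had log2 RPM of 4.38, 4.83, 4.26 and 4.58 in Control, 4.25, 4.57, 4.18 and 4.58 in POP10, 4.12, 4.52, 4.45 and 3.14 in POP70, 4.96, 5.03, 4.99 and 4.51 in PFOS10, and 4.09, 3.88, 4.5 and 4.14 in PFOS70. Of the PFOS10 libraries, 3 lay above all Control libraries and replicate 4 lay lower, inside the Control range. The difference was 0.36 ± 0.22 against Control (adjusted p = 0.328), which did not pass. abcc8 and abcc9 differed from Control by 0.15 (-0.04 to 0.34) and -0.01 (-0.23 to 0.21). Of the 3 copies of ABCC6, whose loss leads to ectopic mineralization, none passed against Control, with abcc6a at 0.07 (-0.28 to 0.42) and abcc6b.2 at -1.03 (-2.17 to 0.1). abcc6b.1 had -1.13, -0.87, 0.01 and -0.17 log2 RPM in Control and -2.28, -0.53, -3.33 and -1.74 in PFOS10, on 1 to 14 reads per library, and its row ends 555 bases from abcc1. abcc6b.1 passed the filter on 5 libraries, none of them of PFOS10. Its calls against PFOS10 stay in the counts below but lend no support. abcc13 (ENSDART00000090514, chromosome 24, 24036195 to 24060632, minus strand), whose role is not given here, had log2 RPM of 5.79, 5.72, 5.56 and 5.47 in Control, 6.2, 6.21, 5.75 and 5.52 in POP10, 6.2, 5.82, 5.33 and 5.08 in POP70, 5.16, 5.62, 5.4 and 5.22 in PFOS10, and 6.07, 5.82, 6.17 and 6.16 in PFOS70. PFOS10 lay mostly below Control and PFOS70 above it without overlap. Its row overlaps lyz on the same strand, so its reads may include those of that gene.

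Between the levels of PFOS alone, 20 members were higher in PFOS70 than in PFOS10 and 4 were lower. Over all genes tested, 23.6% were higher and 10.8% lower, and the members stand at 45.5% and 9.09%. The median member difference was 0.38 on the log2 scale, beside 0.05 over all genes. The split depended on the scaling: it was 18 higher and 8 lower after a shift to equal medians, which moves this comparison by -0.14 over all genes and that of POP10 with PFOS10 by -0.10, and 16 higher and 8 lower after quantile normalization. Of the 24 calls, 22 were shared with the first alternative and 20 with the second. The shares of all genes called after these changes of scaling are not given, here or below. The 10 members that fell in PFOS10 against Control were all among the 20. These comparisons share the PFOS10 libraries, so the counts are not independent.

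abcb11b was higher by 3.52 ± 0.5 (11.4-fold, adjusted p = 7.32e-05), abcc2 by 1.97 ± 0.35 (3.92-fold, adjusted p = 0.000322) and abcc12 by 1.46 ± 0.24 (2.76-fold, adjusted p = 0.00021), all without overlap. The lipid transporters abca12 and abca1b were higher by 1.35 ± 0.21 (2.55-fold, adjusted p = 0.000126) and 1.07 ± 0.16 (2.09-fold, adjusted p = 0.000123). abcc4 was higher by 1.12 ± 0.13 (2.18-fold, adjusted p = 2e-05). Members that had not passed against Control also rose: abcb5 by 0.94 ± 0.19 (1.91-fold, adjusted p = 0.00104), abcb6a by 0.91 ± 0.16 (1.89-fold, adjusted p = 0.000327), abcc13 by 0.71 ± 0.19 (1.63-fold, adjusted p = 0.00717), abcd3a by 0.46 ± 0.11 (1.37-fold, adjusted p = 0.00303) and abcc3 by 0.41 ± 0.11 (1.33-fold, adjusted p = 0.00623). The abcc3 call was lost when read from its lowest-numbered transcript. By role, 9 of 13 efflux, 3 of 4 bile salt and sterol (abcb11a, abcb11b and abcg5), 3 of 5 mitochondrial and lysosomal (abcb6a, abcb9 and abcb10), 2 of 9 cholesterol and phospholipid, 1 of 4 peroxisomal and 1 of 3 mineralization members (abcc6b.1) rose, with abcc13. The 4 that were lower in PFOS70 were abcc8b at -0.72 ± 0.22 (1.65-fold lower, adjusted p = 0.0177), abcc5 at -0.34 ± 0.11 (1.26-fold lower, adjusted p = 0.0176), abca4b at -0.33 ± 0.09 (1.25-fold lower, adjusted p = 0.00609) and abcc8 at -0.25 ± 0.09 (1.19-fold lower, adjusted p = 0.0386). The call of abcc8b was lost without PFOS70 replicate 2, that of abcc5 without PFOS10 replicate 2 or 3 or PFOS70 replicate 1 or 2, and that of abcc8 without any 1 of PFOS10 replicates 1, 2 and 3 and PFOS70 replicates 1, 2 and 4.

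Across the means of the 5 groups, PFOS10 was the lowest in 26 of 44 members, which is 59.1% beside 41.3% of all genes tested. PFOS70 was the highest in 25 members, or 56.8% beside 30.0%. In 25 members the order was PFOS10, then Control, then PFOS70, or 56.8% beside 38.3%. A test of any difference among the 5 groups passed for 18 members, 40.9% beside 27.6% of all genes. In 19 members no comparison and no such test passed.

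Larvae given the mixture at the lower level, which per the labels held PFOS in the same amount, had higher levels of all 10 members that fell in PFOS10. Those 10 were picked by low values in the same PFOS10 libraries, so this count is partly fixed by that choice and is not independent. POP10 against PFOS10 had 17 members higher and 1 lower, beside 19.8% and 11.6% of all genes tested, and the members stand at 38.6% and 2.27%. After a shift to equal medians the split was 16 higher and 7 lower, with 17 of the 18 calls shared. By role, 9 of 13 efflux, 2 of 4 bile salt and sterol, 2 of 9 cholesterol and phospholipid, 1 of 5 mitochondrial and lysosomal, 1 of 4 peroxisomal and 1 of 3 mineralization members were higher, with abcc13. abcb11b was higher in POP10 by 2.22 ± 0.5 (4.66-fold, adjusted p = 0.00306), abcc2 by 1.58 ± 0.35 (2.98-fold, adjusted p = 0.00272), abcg2a by 1.06 ± 0.26 (2.08-fold, adjusted p = 0.00529) and abcc4 by 0.79 ± 0.13 (1.73-fold, adjusted p = 0.000447). abca12, abca1b and abcc12 were higher by 1.07 ± 0.21 (2.09-fold, adjusted p = 0.00135), 1.09 ± 0.16 (2.12-fold, adjusted p = 0.000257) and 1.08 ± 0.24 (2.12-fold, adjusted p = 0.00313). abcb4 was higher by 0.9 ± 0.27 (1.86-fold, adjusted p = 0.0162), which was lost without POP10 replicate 1, and abcb5 by 0.63 ± 0.19 (1.54-fold, adjusted p = 0.0184), lost without PFOS10 replicate 2 or 3. The efflux member abcc3 was higher by 0.29 (adjusted p = 0.047), a call lost in 20 of 30 other settings. The member lower in POP10 was abca3b, at -0.43 ± 0.16 (1.35-fold lower, adjusted p = 0.0399), with overlapping groups and a call lost without any of PFOS10 replicates 1, 3 and 4 and POP10 replicates 1, 2 and 4.

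The step from the lower to the higher level was compared between the mixture and PFOS alone in 1 test. It passed for 14 members, 31.8% beside 15.9% of all genes tested, a share that counts both directions. In all 14 the step of the mixture was below that of PFOS. How all passing genes split by direction is not given here. The 1 direction is therefore not shown to be particular to the members. Over all genes, PFOS70 against PFOS10 gave 23.6% higher and 10.8% lower, and POP70 against POP10 gave 0%. After a shift to equal medians the split of members was 14 below and 4 above. The largest were abcb11b at -3.15 ± 0.7 (adjusted p = 0.00684), abcc6b.1 at -2.19 ± 0.67 (adjusted p = 0.0329) and abcc2 at -1.97 ± 0.49 (adjusted p = 0.0116). For abcc4 it was -1.07 ± 0.19 (adjusted p = 0.00219), made of a PFOS step of 1.12 and a mixture step of 0.05. abcg2a did not pass (adjusted p = 0.0625). The abcc6b.1 call rests on 1 to 14 reads per library and was lost without PFOS10 replicate 1 or 3, PFOS70 replicate 1 or 2, POP10 replicate 1 or 2, or POP70 replicate 3 or 4. It was also lost with 4 RPM added before the log and after quantile normalization, with adjusted p up to 0.252. No PFOS10 library of abcc6b.1 reached the filter level. The abcd3a call was lost without PFOS70 replicate 1 or 2, POP10 replicate 1 or POP70 replicate 3 or 4, and the abcg2b call without PFOS10 replicate 2, PFOS70 replicate 1 or 2, POP10 replicate 1 or POP70 replicate 4. The abcg2b call was also lost with 4 RPM added before the log and after quantile normalization.

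**Figure D3:**
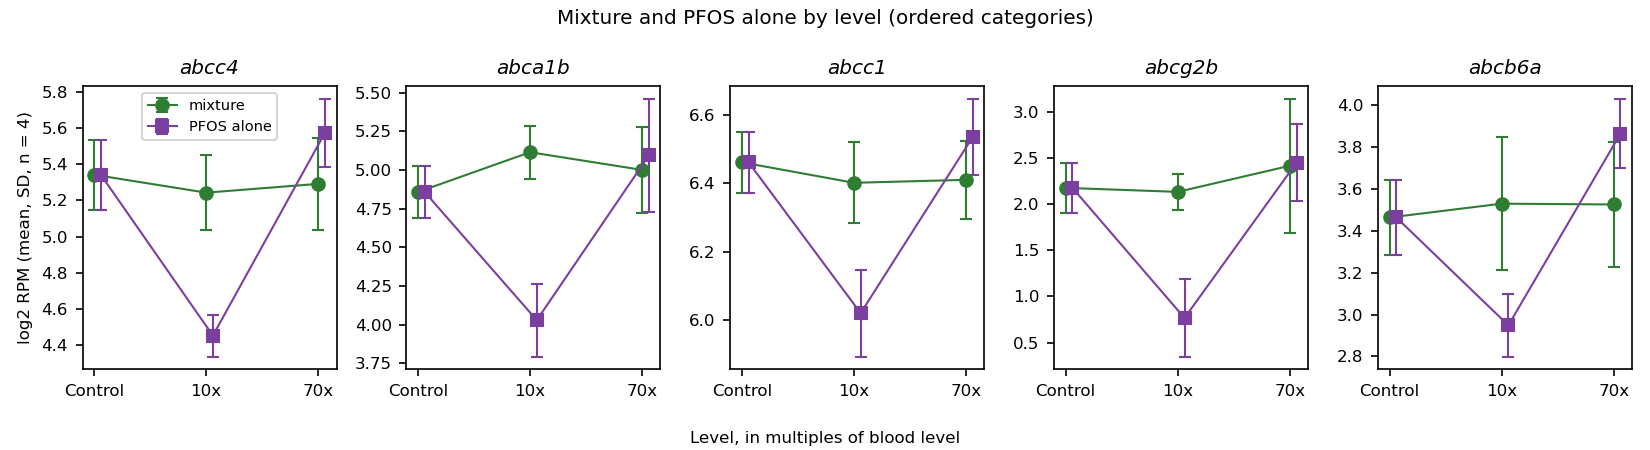
Panels give the mean and SD (n = 4) of log2 RPM for abcc4, abca1b, abcc1, abcg2b and abcb6a at Control and at 10 and 70 times blood level, placed as ordered categories. The PFOS line dips at the lower level and rises again at the higher, as for abcc4 at 5.34 ± 0.19, 4.45 ± 0.12 and 5.57 ± 0.19. The mixture means of abcc4 stay at 5.24 ± 0.21 and 5.29 ± 0.25. All members shown passed the test of the difference between dose steps, so the pattern is partly fixed by that choice. The dip of abcb6a against Control did not pass. Members not shown, among them abcc8b, abcc5 and abca4b, were lower in PFOS70 than in PFOS10.

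No member passed against Control in either mixture group or in PFOS70. In POP10 against Control no member passed and none had an unadjusted p under 0.05, beside 0% and 9.63% of all genes. The members of smallest p in each direction were abcd4 at 0.19 (95% interval -0.03 to 0.41, adjusted p = 0.555) and abca2 at -0.19 (-0.41 to 0.03, adjusted p = 0.544). In POP70 against Control no member passed and 2 had an unadjusted p under 0.05, both lower, beside 0.0156% called and 6.21% lower at that p among all genes. Here abca4a stood at -0.25 (-0.48 to -0.02, adjusted p = 0.473) and abcb11b at 0.87 (-0.17 to 1.91, adjusted p = 0.543). For the efflux pumps the intervals limit what these pools could miss. The difference of abcc4 was -0.1 (-0.37 to 0.17) in POP10 and -0.05 (-0.32 to 0.22) in POP70, and that of abcc1 was -0.06 (-0.23 to 0.11) and -0.05 (-0.22 to 0.12). For the more variable abcc2 the intervals were wider, at -0.41 to 1.04 in POP10 and -0.41 to 1.04 in POP70.

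In PFOS70 against Control no member passed, 7 had an unadjusted p under 0.05 and 4 did not overlap, beside 0%, 11.7% and 7.11% of all genes. abcb11b was the member of smallest p, at 1.8 ± 0.5 (95% interval 0.77 to 2.84, adjusted p = 0.235), and it passed without Control replicate 4 (adjusted p = 0.0445). abca12 and abcd4 were higher without overlap by 0.64 (0.2 to 1.08) and 0.3 (0.07 to 0.52) in log2 difference but did not pass. The median member difference was 0.14, beside 0.02 over all genes. POP70 against PFOS70 gave no call among members, with 5 unadjusted p under 0.05, beside 0.181% and 11.1% of all genes. abcc6b.2 was at 1.46 (0.32 to 2.59) and abcc13 at -0.45 (-0.84 to -0.05). POP70 against POP10 gave none either, with 1 unadjusted p under 0.05, beside 0% and 3.01% of all genes. There abcd2 at -0.81 (-1.41 to -0.21) and abcb6b at 0.65 (-0.03 to 1.33) had the smallest p in each direction.

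**Figure D4:**
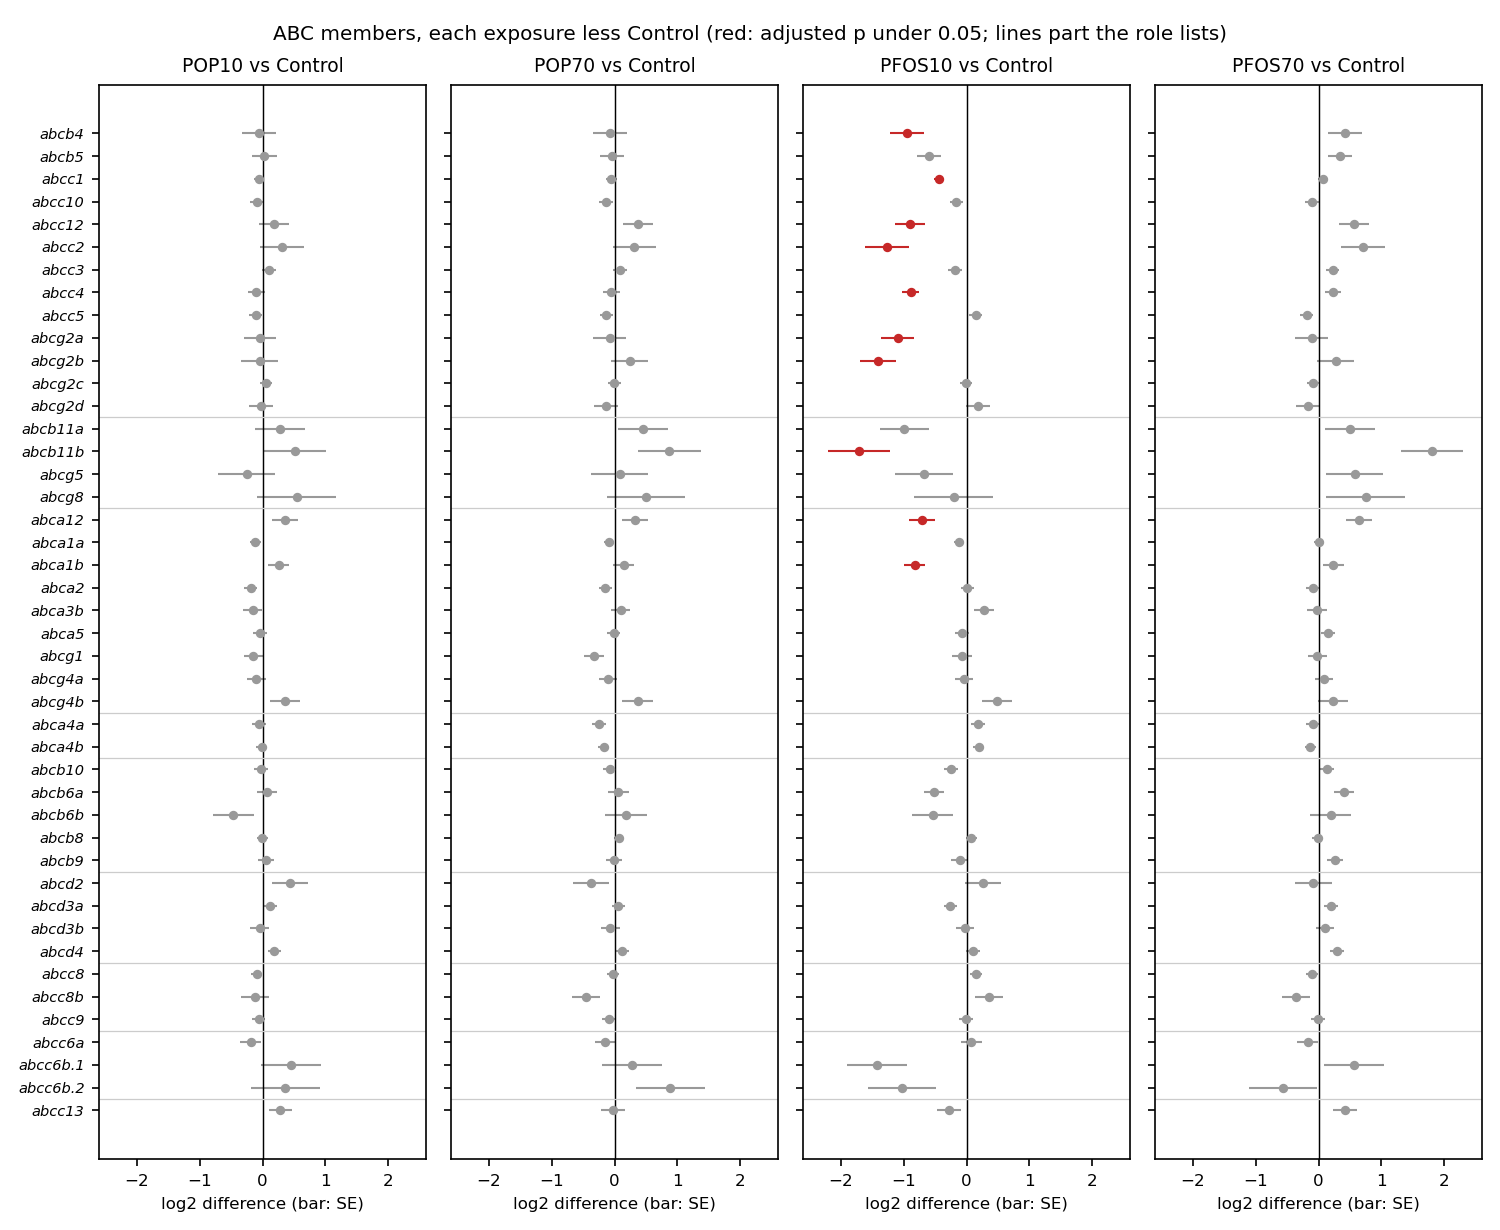
The 4 panels give the log2 difference of each exposure from Control for 44 members in order of role, with bars of 1 SE and calls in red. The 10 red points all lie left of 0 in the PFOS10 panel, and the other 3 panels hold none.

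Members with several transcript rows were read from 1 row each. Of the 10 members that fell, 4 had several rows, and all rows of all 4 were lower in PFOS10. Over the 30 members with several rows, all rows had the same sign in 24 in that comparison. Among members called in PFOS70 against PFOS10, 16 had several rows, and all rows had the same sign in 14. The exceptions were abcc13, with rows at 0.71 and -0.24, and abcc6b.1, with a row at -0.02. The called row of abcc5 stood at -0.34 and its other rows at -0.05 and -0.06. Against Control in PFOS10 those abcc5 rows were at 0.15, -0.08 and -0.10. Rows of 1 gene share exons and so reads, and they are not independent measurements.

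Other genes of the same pathways were read from fixed lists. Over all genes tested, 6.97% fell and 1.28% rose in PFOS10 against Control, the shares beside which the counts below stand. In that comparison, 6 of 14 uptake carriers and bile salt synthesis genes fell and none rose. cyp7a1, the rate-limiting enzyme of bile acid synthesis, fell by 1.42 ± 0.38 (adjusted p = 0.0295). The ileal bile salt carriers slc10a2 and slc51a fell by 1.1 ± 0.24 and 1.04 ± 0.26 (adjusted p = 0.0107 and 0.0225), with slc22a7a, slco2a1 and slco2b1. The hepatic bile salt carrier slc10a1 stood at -0.17 and did not pass (adjusted p = 0.747). Of 9 enzymes that oxidize or conjugate foreign compounds, 3 fell. The cytochrome P450 oxidases cyp1a and cyp3a65 fell by 1.0 ± 0.29 and 1.7 ± 0.51 (adjusted p = 0.0381 and 0.0448), and the sulfotransferase sult2st1 by 0.78 ± 0.2 (adjusted p = 0.0233). Of 25 nuclear receptors and sensors, 4 fell: the xenobiotic receptor nr1i2 by 0.82 ± 0.2 (adjusted p = 0.0188), nfe2l2a, nr0b2a and pparg. The bile acid receptor nr1h4 was at -0.76 (adjusted p = 0.06) and the oxysterol receptor nr1h3 at 0.01 (adjusted p = 0.934). None of 4 soluble ABC proteins of subfamilies E and F passed, nor did any of 3 ABC genes with other names, among them cftr at -0.48. In PFOS70 against Control none of these lists held a call, and neither did any other of the 19289 genes tested.

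Markers of several organs were lower in PFOS10, those of organs that use these transporters among them. The summed level of 15 hepatocyte markers was 1635 to 4382 RPM in Control, 1024 to 1634 in PFOS10 and 3045 to 4945 in PFOS70. For 11 enterocyte markers the sums were 553.9 to 1386, 262.6 to 590.3 and 745.8 to 1960 RPM, and for 9 pronephros markers 316.5 to 415.1, 243.8 to 332.7 and 350.5 to 537.4. For 8 exocrine pancreas markers they were 196.2 to 415.5, 42.73 to 136.8 and 200.5 to 608.6. Macrophage sums were 149.7 to 188.7, 124.6 to 139.3 and 183.8 to 203.8. Not every marker of a list went the same way in PFOS10 against Control. Of 4 macrophage markers, 2 had negative and 2 positive log2 differences, with a median of -0.12. Of 9 pronephros markers, 6 were negative and 3 positive. Heart sums were 12.64 to 17.63, 4.793 to 11.37 and 17.08 to 55.05. Neuron sums leaned the other way, at 4564 to 5166, 4605 to 6248 and 3943 to 4695, as did the photoreceptor sums above. Ionocyte and skeletal muscle sums in PFOS10 spread to both sides of the Control range. In PFOS10 against Control, 8 of 14 hepatocyte markers tested fell, as did 6 of 11 enterocyte, 4 of 8 exocrine pancreas, 2 of 9 pronephros, 2 of 6 ionocyte and 2 of 4 macrophage markers. The share of all genes tested was 6.97% lower and 1.28% higher. Of 7 neuron, 6 skeletal muscle and 4 heart markers none passed, and 1 of 9 photoreceptor markers, opn1lw2, rose. No enterocyte marker was below 0 log2 RPM in all libraries of a group. Of the hepatocyte markers, hpx was below 0 in every group and tfr2 and ahsg1 were below 0 in all libraries of PFOS10. The part of the markers in the falls of the ABC members was not tested, and in RNA of whole larvae fewer cells of a type and less RNA per cell cannot be told apart. In the mixture groups the hepatocyte sums were 2400 to 3402 RPM in POP10 and 2120 to 3548 in POP70.

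**Figure D5:**
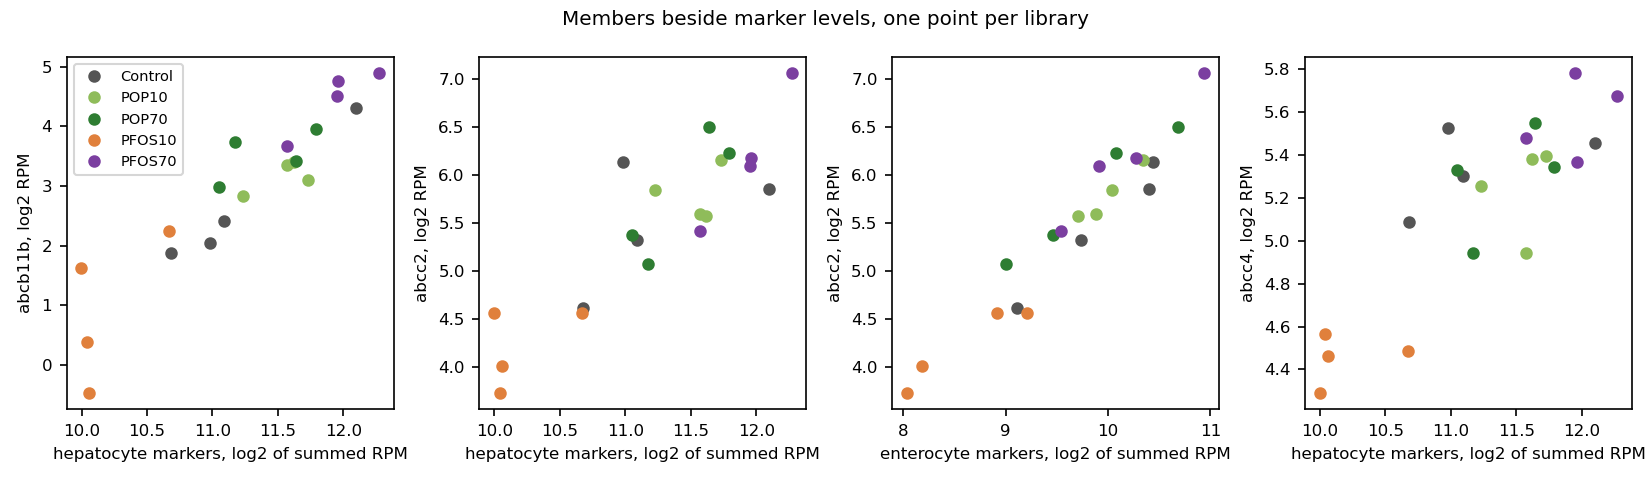
Each point is 1 library, with the log2 of summed marker RPM across and the log2 RPM of a member upward, for abcb11b, abcc2 and abcc4 with hepatocyte markers and abcc2 with enterocyte markers. The 4 PFOS10 points lie toward the low end of both axes, and Control replicate 4 lies at the high end for abcb11b and hepatocyte markers.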

How the data were processed

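The authors deposited 1 table of 48838 transcripts in 20 libraries of poly-T selected RNA. Per the submitters' processing notes, the tools were STAR 2.5.4b, Trim Galore 0.4.5, R 3.5.0 and DESeq2 and the build was GRCz11, with no role or order given. The deposited values are log2 RPM, with 0 reads written as 0.9 reads. This was read from the values, since those between 1 and 1000 reads were whole in 100% of cases at a tolerance of 0.05. The RPM of a library sum to 3126704 to 3390337, above the total to which RPM are scaled. PFOS10 replicates 1, 2 and 3 had the lowest sums, at 3126704, 3224048 and 3244668, and PFOS10 replicate 4 had 3354701. Neither the step from alignments to log2 values, nor strand, nor the treatment of multiply mapped reads is stated in the sources used here.

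Differences were computed in R 4.3.3 with limma 3.58.1 on the deposited log2 values with no added pseudocount. A linear model over 20 libraries had only the group as a term (15 residual degrees of freedom), with a mean-variance trend and two-sided moderated tests. A gene was tested if 4 or more libraries had 0 log2 RPM or above, which held for 19289. The Benjamini-Hochberg adjustment was made within each of 8 comparisons, within the test of any difference among groups and within that of the difference between dose steps, at 0.05. The steps were tested on simulated counts with the same dispersion for every gene. That setting differs from the spread between these pools, so it does not give the error rate of these calls. Writing 0 as 0.9 reads understates folds at low counts.

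Values are given in every library for members called in any comparison (the 15 largest differences at a mean of at least 3 log2 RPM), for abcb4, abcb5, abcc1, abcc2, abcg2a and abcb11b, and for the 3 members of highest mean. Members, role lists and marker lists were chosen with earlier results of these data known. Of the role lists, abcc11, abca3a and abca7 were not used here, and 2 of the 46 members are not reported here, though they stayed in the model of all genes. The alternatives left out the filter, raised it to 3 log2 RPM, added 4 RPM before the log, normalized by quantiles or equal medians, dropped the trend, blocked by replicate number, fitted the compared groups alone, read the lowest-numbered transcript, ran voom on recovered reads, dropped the PFOS10 libraries, or left out each library.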

Additional observations from a re-analysis of the deposited data

Results flagged for a closer look

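In 7 of 220 sets of 4 libraries (44 members in 5 groups), 1 library stood apart from the other 3 by Dixon's test at 95%, and chance gives about 1 in 20. abca4b was 6.08 log2 RPM in POP10 replicate 1, against 6.2 to 6.22 in the other 3. abca5 was 5.09 log2 RPM in POP70 replicate 4, against 5.26 to 5.29 in the other 3. abcb6a was 2.73 log2 RPM in PFOS10 replicate 2, against 3.0 to 3.05 in the other 3. abcc1 was 6.37 log2 RPM in PFOS70 replicate 4, against 6.57 to 6.61 in the other 3. abcc8 was 5.53 log2 RPM in POP10 replicate 3, against 5.65 to 5.66 in the other 3. abcc8b was 4.51 log2 RPM in PFOS10 replicate 4, against 4.96 to 5.03 in the other 3. abcd4 was 4.12 log2 RPM in PFOS70 replicate 1, against 3.82 to 3.85 in the other 3.

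The step from the lower to the higher level differed between the mixture and PFOS alone in 14 members by the limma test of that difference, with adjusted p under 0.05. This was 31.8% of members, beside 15.9% of all genes tested. abcb11b had a step of 0.36 with the mixture and 3.52 with PFOS, a difference of -3.15 (adjusted p = 0.0068). abcc6b.1 had a step of -0.19 with the mixture and 2.0 with PFOS, a difference of -2.19 (adjusted p = 0.0329). No PFOS10 library of abcc6b.1 reached the filter level of 0 log2 RPM. abcc2 had a step of 0.00 with the mixture and 1.97 with PFOS, a difference of -1.97 (adjusted p = 0.0116). abcg2b had a step of 0.28 with the mixture and 1.68 with PFOS, a difference of -1.4 (adjusted p = 0.0273). abcb4 had a step of -0.01 with the mixture and 1.38 with PFOS, a difference of -1.39 (adjusted p = 0.019). abca12 had a step of -0.03 with the mixture and 1.35 with PFOS, a difference of -1.38 (adjusted p = 0.0056). abcc12 had a step of 0.19 with the mixture and 1.46 with PFOS, a difference of -1.28 (adjusted p = 0.018). abca1b had a step of -0.11 with the mixture and 1.07 with PFOS, a difference of -1.18 (adjusted p = 0.0041). abcc4 had a step of 0.05 with the mixture and 1.12 with PFOS, a difference of -1.07 (adjusted p = 0.0022). abcc13 had a step of -0.31 with the mixture and 0.71 with PFOS, a difference of -1.02 (adjusted p = 0.0158). abcb5 had a step of -0.07 with the mixture and 0.94 with PFOS, a difference of -1.0 (adjusted p = 0.0185). abcb6a had a step of 0.00 with the mixture and 0.91 with PFOS, a difference of -0.92 (adjusted p = 0.0114). abcd3a had a step of -0.06 with the mixture and 0.46 with PFOS, a difference of -0.52 (adjusted p = 0.0274). abcc1 had a step of 0.01 with the mixture and 0.51 with PFOS, a difference of -0.51 (adjusted p = 0.008).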

How the results depend on the processing

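The count of 10 members lower in PFOS10 than in Control was 5 without the filter, 5 after quantile normalization, 6 without the variance trend and 6 by voom on recovered reads. The shares of all genes called under these alternatives are not given here. Counts under an alternative therefore do not set members against genes in general. Leaving out 1 library gave 4 to 12 calls. After a shift to equal medians there were 9 lower and 1 higher. For PFOS70 against Control, leaving out 1 library gave 0 to 1 calls, the 1 being abcb11b without Control replicate 4. Leaving out 1 library gave 19 to 25 calls for PFOS70 against PFOS10, 13 to 20 for POP10 against PFOS10, 11 to 18 for the difference between dose steps and 12 to 20 for any difference among groups. No called difference of a member changed sign under an alternative, while differences of abcb4, abcb5 and abcg2a from Control that had not passed took both signs in POP10 and POP70, and that of abcg2a also in PFOS70. POP10 against Control, POP70 against Control, POP70 against PFOS70 and POP70 against POP10 had 0 calls among members under every alternative, the fit without PFOS10 libraries included. What caused these changes was not tested.

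The replicate number as a block gave 11 calls for PFOS10 against Control and 25 for PFOS70 against PFOS10. The labels do not say what a number shares. Same-numbered libraries correlated in their deviations from the group means at -0.15 to -0.01 for PFOS10 and Control, at 0.07 to 0.12 for PFOS70 and PFOS10, and at 0.01 to 0.25 for POP70 and PFOS70, where 3 of 4 pairs were over 0.1. In none of the 8 comparisons were all 4 pairs over 0.1, so the numbers were not taken to pair the samples. In each comparison at most 2 of 4 libraries of the first-named group correlated best with their own number.

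Depth limits the members at low counts: abcc6b.1, abcg5 and abcg8 had medians of 8, 15 and 14.5 reads per library. Intervals cover the spread between pools, and read counts are not counts of molecules.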

Other observations

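Some members outside the naming rule were called between PFOS70 and PFOS10 or had telling values, and were chosen after their values were seen. abcg2b, a low-count copy of ABCG2, had log2 RPM of 2.04, 2.3, 1.87 and 2.49 in Control, 2.38, 1.93, 2.17 and 2.06 in POP10, 1.72, 3.41, 2.45 and 2.08 in POP70, 0.96, 0.47, 1.26 and 0.38 in PFOS10, and 2.62, 2.88, 2.39 and 1.9 in PFOS70. PFOS10 lay below all other libraries.

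The mitochondrial transporter abcb10 had log2 RPM of 4.54, 4.44, 4.44 and 4.52 in Control, 4.69, 4.22, 4.51 and 4.41 in POP10, 4.29, 4.54, 4.54 and 4.25 in POP70, 4.1, 4.34, 4.21 and 4.28 in PFOS10, and 4.84, 4.62, 4.53 and 4.47 in PFOS70, and was higher in PFOS70 than in PFOS10 by 0.38 ± 0.11 (1.30-fold, adjusted p = 0.00925), without overlap. Its row overlaps urb2 on the opposite strand, and the call was lost after a shift to equal medians or quantile normalization. The retinal transporter abca4b had log2 RPM of 6.0, 6.4, 6.18 and 6.17 in Control, 6.08, 6.2, 6.21 and 6.22 in POP10, 5.97, 5.92, 6.15 and 6.03 in POP70, 6.39, 6.42, 6.39 and 6.33 in PFOS10, and 5.97, 6.19, 6.2 and 5.87 in PFOS70. Its 4 PFOS10 libraries lay within 6.33 to 6.42, above all PFOS70 libraries, and it was lower in PFOS70 at -0.33 ± 0.09 (1.25-fold lower, adjusted p = 0.00609). The bile salt pump copy abcb11a had log2 RPM of 2.5, 3.41, 2.36 and 2.74 in Control, 3.37, 2.57, 3.8 and 2.38 in POP10, 3.93, 3.74, 2.07 and 3.08 in POP70, 1.96, 1.52, 2.38 and 1.2 in PFOS10, and 3.25, 4.01, 3.28 and 2.46 in PFOS70. Every group spread over more than 1 log2 unit. It was higher in PFOS70 than in PFOS10 by 1.49 ± 0.4 (2.80-fold, adjusted p = 0.00663).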
